A study of Homo sapiens with 16 samples.

Results

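The genes described here drive the passage from G1 into S phase and copy the DNA. They are 48 genes of origin licensing, origin firing, DNA synthesis, nucleotide supply and chromatin assembly, with 5 E2F transcription factors, chosen by symbol from the 44591 gene rows of the deposited tables and not by their values. All 48 symbols were found in both tables, and all 48 passed the filter on low counts that left 22263 genes for testing. They were sorted by role into 7 classes.

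Replication origins are licensed in G1, when the origin recognition complex with CDC6 and CDT1 loads the MCM2 to MCM7 helicase onto DNA. In S phase the kinase CDC7 with its partner DBF4, together with CDC45 and the GINS complex, turns the loaded helicase into an active one, and the clamp PCNA, its loader RFC and the DNA polymerases follow. Many of these genes are transcribed under E2F factors, which the retinoblastoma protein holds back until cyclin-dependent kinases release them, so that their mRNAs are high in cycling cells.

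The cells were of NCI-H1688, an established line from a human small cell lung carcinoma, and their poly(A) RNA was sequenced in 16 libraries that formed 8 groups of 2 biological duplicates. Besides control cells, groups received 1 µM sanguinarine (labelled sanguinarine chloride in places), 3 µM cepharanthine, 3 µM evodiamine, 28 µM JQ1, which blocks BET bromodomains, or 60 nM panobinostat, which inhibits histone deacetylases. The last 2 groups received sanguinarine together with JQ1 or with panobinostat at those doses, and every treatment lasted 24 h. The sample labels call the control untreated, and the design text names DMSO. Sanguinarine, cepharanthine and evodiamine are plant alkaloids. One deposited table held the control and the single alkaloids and a second held JQ1, panobinostat and both combinations, so a drug of the second table and the table itself cannot be told apart against the control. Such levels are set side by side below without a test.

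Counted reads ran from 39996881 to 64060919 per library, and 0 reads would allow a level of up to 0.0468 to 0.075 CPM (counts scaled to library size), taking 3 counts as the floor and counting error only. The replicate libraries for sanguinarine plus panobinostat were the least alike (chi-square over degrees of freedom 83.8, with 4.92 to 27.2 elsewhere). In the second table, libraries titled with S- carry the single-drug labels. HMOX1, which encodes heme oxygenase 1 and is no member, was used to check them because it stood at 226 and 189 CPM with sanguinarine alone against 1.54 and 1.83 CPM in the control. It stood at 682 and 698 CPM in the libraries labelled sanguinarine with JQ1 and at 10.6 and 9.99 CPM in those labelled JQ1, and at 175 and 186 CPM against 8.5 and 8.28 CPM for panobinostat, so it was high where the labels name sanguinarine. Of the neuroendocrine markers of small cell lung cancer, NEUROD1 was at 0 in 16 of 16 libraries, and INSM1 was at 0 in 14. CHGA, SYP, NCAM1 and POU2F3 were at 0 in no library. Their median levels over the 16 libraries were 0.244, 3.15, 0.285 and 0.476 CPM, and their highest were 0.805, 31.7, 87.2 and 4.57 CPM. YAP1 stood at 69.7 to 309 CPM. The epithelial genes KRT8 and EPCAM stood at 1820 to 5480 and 81.7 to 195 CPM. In bulk RNA, fewer cells in S phase and less mRNA per cell cannot be told apart.

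Promoters were examined first, since E2F factors are themselves members. The RefSeq table of GRCh38.p14 held a window of 250 bases before to 50 after the annotated start for 43 of the 48 members. The 5 not matched were E2F8, GINS4, MCM4, MCM5 and POLD3. The E2F words (TTTGGCGC, TTTCGCGC, TTTCCCGC and TTTGCCGC) and the CCAAT word were searched on both strands. The words were written down after fold changes and several of these promoters had been seen. E2F words can overlap one another on opposite strands, since TTTGGCGC and the reverse of TTTCGCGC share letters. At least 1 E2F word was found in 22 of 43 members (51.2%), against 908 of 27305 promoters in the table (3.33%), and CCAAT in 24 of 43 (55.8%) against 35.7%. A match is a description of letters and not of binding.

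Promoters of 4 members are printed because their genes had the largest mean falls over sanguinarine and evodiamine among members in the table. Some hold none of the exact E2F words searched. Near matches, such as tttggcgg in CDC45 and cttggcgc in UNG, were not counted, so a missing word does not show a missing site. Each line gives the 250 bases before the start, 5′ to 3′ on the gene's strand, with complete words in capitals.
UNG: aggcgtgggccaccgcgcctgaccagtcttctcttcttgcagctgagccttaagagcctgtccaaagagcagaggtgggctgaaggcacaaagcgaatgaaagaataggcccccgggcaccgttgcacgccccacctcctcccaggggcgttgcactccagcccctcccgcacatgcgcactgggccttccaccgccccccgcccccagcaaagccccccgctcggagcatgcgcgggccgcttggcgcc
E2F2: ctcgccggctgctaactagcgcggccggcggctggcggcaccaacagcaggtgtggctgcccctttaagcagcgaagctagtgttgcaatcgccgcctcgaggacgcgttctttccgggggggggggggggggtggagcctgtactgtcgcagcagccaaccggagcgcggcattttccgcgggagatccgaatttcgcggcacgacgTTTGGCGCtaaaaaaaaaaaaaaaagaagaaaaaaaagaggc
CDC45: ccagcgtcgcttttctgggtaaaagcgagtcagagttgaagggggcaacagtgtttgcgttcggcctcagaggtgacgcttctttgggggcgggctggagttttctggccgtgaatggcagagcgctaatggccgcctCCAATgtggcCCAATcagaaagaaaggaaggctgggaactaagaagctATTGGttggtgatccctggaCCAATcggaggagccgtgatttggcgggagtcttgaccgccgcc
GINS2: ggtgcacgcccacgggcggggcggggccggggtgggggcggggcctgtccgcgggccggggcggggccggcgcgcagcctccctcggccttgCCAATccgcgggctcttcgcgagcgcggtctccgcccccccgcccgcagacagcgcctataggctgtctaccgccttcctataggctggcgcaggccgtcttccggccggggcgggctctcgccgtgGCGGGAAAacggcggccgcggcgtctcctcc
These lie at chr12:109097347-109097596 (plus strand), chr1:23531234-23531483 (minus), chr22:19479670-19479919 (plus) and chr16:85688955-85689204 (minus). E2F2 and GINS2 each hold 1 E2F word, whereas CDC45 holds 4 CCAAT words and no E2F word. UNG holds no complete word before the start, and its only CCAAT spans the start.

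A further pair, of 160 bases each, was chosen after the words were found, to show promoters with more than 1 E2F word.
E2F1: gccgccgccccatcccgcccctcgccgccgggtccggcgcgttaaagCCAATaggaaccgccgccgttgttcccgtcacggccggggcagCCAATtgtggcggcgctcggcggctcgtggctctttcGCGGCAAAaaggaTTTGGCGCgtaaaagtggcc
MCM6: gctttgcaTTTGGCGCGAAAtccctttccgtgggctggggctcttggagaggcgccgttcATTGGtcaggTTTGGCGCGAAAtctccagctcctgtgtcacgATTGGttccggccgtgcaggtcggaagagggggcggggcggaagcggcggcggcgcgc
They lie at chr20:33686386-33686545 and chr2:135876444-135876603, both on the minus strand. E2F1 holds 2 E2F words, starting at -33 and -20 from the start, and MCM6 holds 4 farther upstream, starting at -152, -148, -90 and -86, that form 2 overlapping pairs. Over the 43 promoters there were 29 E2F words, of which 19 began in the last 100 bases before the start.

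**Figure D1:**
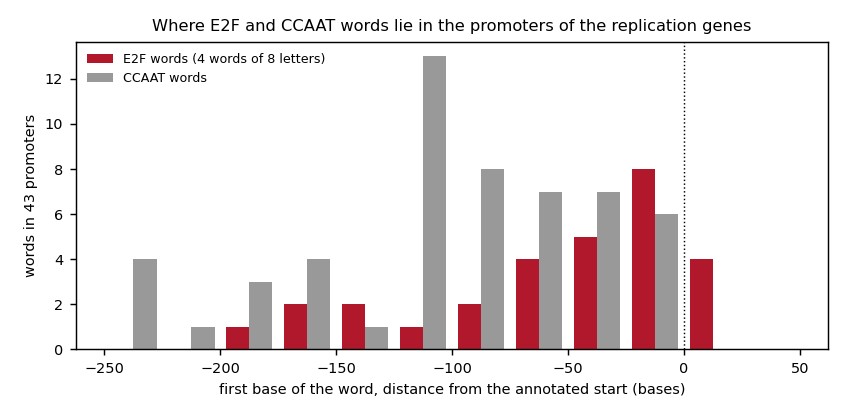
Number of E2F words (red) and CCAAT words (grey) in 43 promoters, in bins of 25 bases by the distance of the word's first base from the annotated start. The fullest E2F bin, with 8 words, is the one just before the start, and the fullest CCAAT bin, with 13, begins 125 bases before it.

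Members with and without an E2F word had similar median changes. With sanguinarine the median log2 change was -0.72 in the 22 members with an E2F word and -0.68 in the 21 without, and with evodiamine it was -0.67 and -0.55. Each group held 16 members called lower with evodiamine. No test was run on this split, because the words were chosen with values known.

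Compared per length in the control, MCM7, a helicase subunit, had the highest deposited RPKM (reads scaled to gene length and library size), 109 ± 3.5 (SD, n = 2). FEN1, the flap endonuclease of lagging strands, followed at 102 ± 0.93, and TK1, thymidine kinase, at 99 ± 1.2. The order of these neighbours rests on 2 libraries and was not tested. The lowest was E2F2 at 2.18 ± 0.015, below GINS4 at 4.56 ± 0.063 and the polymerase epsilon subunit POLE2 at 5.04 ± 0.41. MCM7 overlaps AP4M1 and MIR25, and TYMS, DBF4, PCNA, RFC4, GINS4, POLA1 and DUT each overlap an expressed row on the other strand. Reads of such pairs may be shared, since no strand setting is given for the counting. Pseudogene rows held at most 3.1% of a member's reads, for E2F3.

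The first question was how each alkaloid moved these genes. Sanguinarine lowered 44 of 48 and raised 0 (background 10.3% of all genes tested lower and 11.7% higher), with a median log2 change of -0.69 against 0.01 over all genes. Evodiamine lowered 36 and raised 0 (6.13% lower and 5.3% higher), with a median of -0.61 against 0. The members took 0.515% and 0.517% of counted reads in control cells, against 0.35% and 0.353% after sanguinarine, 0.352% and 0.348% after evodiamine and 0.484% and 0.483% after cepharanthine. When each library was left out in turn, 34 of the 44 and 27 of the 36 calls held every time.

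**Figure D2:**
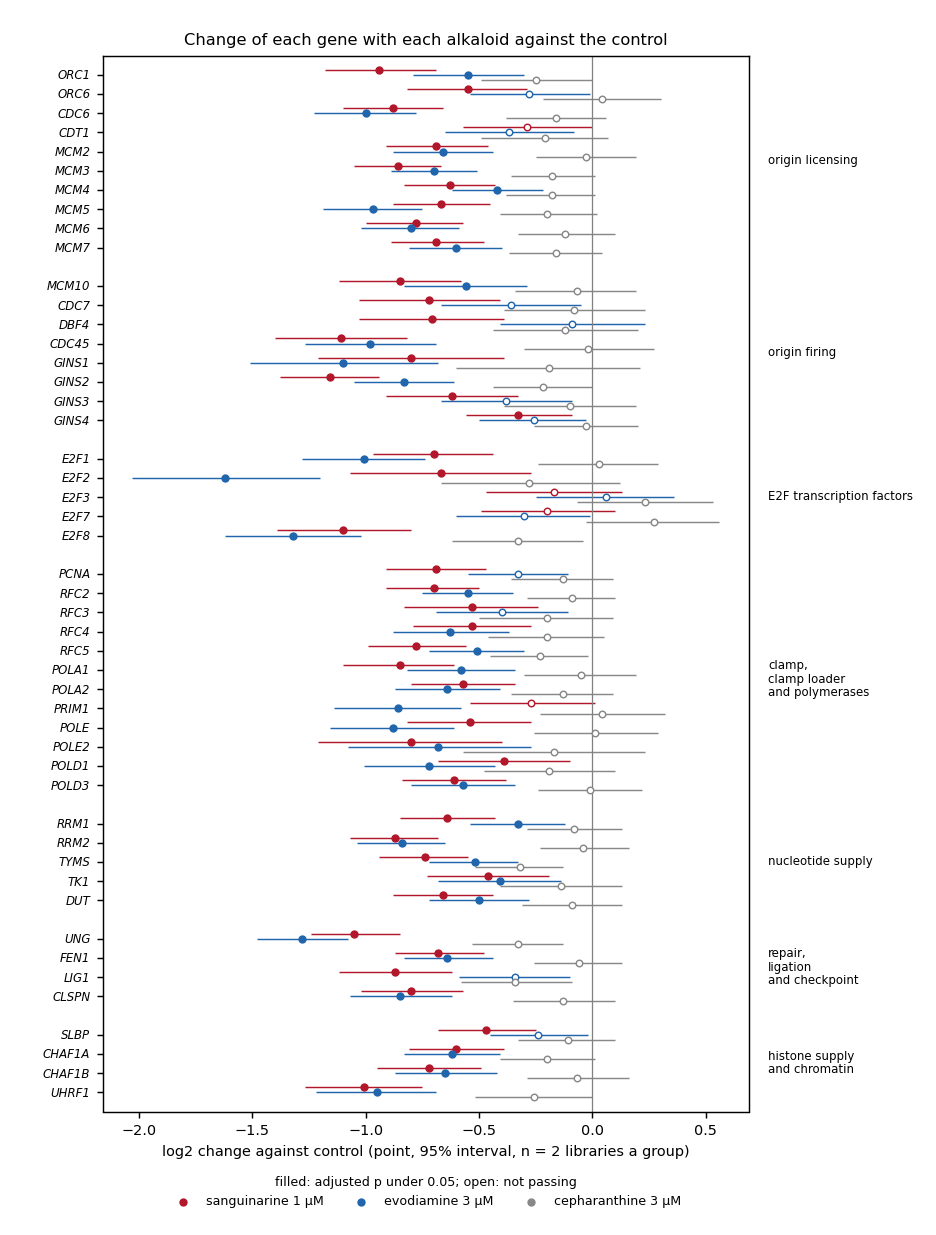
Log2 change against the control for each member, by role, with sanguinarine (red), evodiamine (blue) and cepharanthine (grey). Points are estimates, lines 95% intervals, and filled points passed an adjusted p of 0.05. The sanguinarine and evodiamine points lie left of 0 for all members but E2F3 with evodiamine, at 0.06, while no cepharanthine point is filled.

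Among the 10 licensing genes, sanguinarine lowered 9 and evodiamine 8. ORC1, the largest subunit of the origin recognition complex, stood at 58.4 and 58 CPM in control cells, 31.1 and 29.7 after sanguinarine and 40.3 and 39.3 after evodiamine. Its libraries did not overlap between the 3 groups, and its log2 change was -0.94 (95% interval -1.18 to -0.69, edgeR adjusted p = 1.06e-05) with sanguinarine and -0.55 (95% interval -0.79 to -0.30, edgeR adjusted p = 0.00388) with evodiamine. The evodiamine call was lost without evodiamine replicate 2 (adjusted p = 0.0596). CDC6, which loads the helicase with ORC, stood at 118 and 118 CPM in control cells, 63.6 and 64.6 after sanguinarine and 59.2 and 58.5 after evodiamine. The log2 change of CDC6 with evodiamine was -1.0 (95% interval -1.23 to -0.78, edgeR adjusted p = 2.56e-06), the largest of the class.

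All 6 subunits of the MCM2 to MCM7 helicase fell with both alkaloids. Their log2 changes ran from -0.86 (MCM3) to -0.63 (MCM4) with sanguinarine and from -0.97 (MCM5) to -0.42 (MCM4) with evodiamine. The MCM4 call with evodiamine was lost without control replicate 2 or either evodiamine library (adjusted p = 0.06 to 0.103). ORC6, the smallest ORC subunit, stood at 36.7 and 40.7 CPM in control cells, 26.8 and 26 after sanguinarine and 32.2 and 31.7 after evodiamine. It passed with sanguinarine, at -0.55 ± 0.13 (edgeR adjusted p = 0.00352), though not without control replicate 2 (adjusted p = 0.0584), and did not pass with evodiamine, at -0.28 ± 0.13. CDT1, the loading factor that is degraded in S phase, passed with neither, at -0.29 ± 0.13 and -0.37 ± 0.13. Values after ± are standard errors.

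All 8 firing genes fell with sanguinarine and 4 fell with evodiamine. GINS2, a subunit of the GINS complex, stood at 73.4 and 79.1 CPM in control cells, 32.7 and 35.4 after sanguinarine and 42 and 43.5 after evodiamine. The groups did not overlap, and its log2 change of -1.16 (95% interval -1.38 to -0.94, edgeR adjusted p = 1.91e-07) was the largest of all members with sanguinarine. CDC45, the helicase cofactor, changed by -1.11 ± 0.14 with sanguinarine and -0.98 ± 0.14 with evodiamine.

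GINS1 fell most of its class with evodiamine, from 20.4 and 24.3 CPM to 11.1 and 9.81, a log2 change of -1.10 (95% interval -1.51 to -0.68, edgeR adjusted p = 0.000902). The smallest passing change with sanguinarine was that of GINS4, -0.33, whose call was lost without any one of the control and sanguinarine libraries (adjusted p = 0.121 to 0.263). DBF4, the activator of CDC7, stood at 36.5 and 39 CPM in control cells, 24.1 and 22 after sanguinarine and 36.9 and 34.1 after evodiamine, so that evodiamine overlapped the control. CDC7, GINS3 and GINS4 also passed with sanguinarine (GINS3 not without control replicate 2 or sanguinarine replicate 2, adjusted p = 0.0505 and 0.0923) and not with evodiamine, where their changes were -0.36 ± 0.15, -0.38 ± 0.14 and -0.26 ± 0.11. MCM10, which helps start the active helicase, fell by 0.85 and 0.56 on the log2 scale, and the second call was lost without control replicate 2 or evodiamine replicate 2 (adjusted p = 0.0733 and 0.0882).

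Of the 5 E2F genes, E2F1, E2F2 and E2F8 fell with both alkaloids, and E2F3 and E2F7 passed with neither. E2F2, an activator, stood at 12.1 and 12.2 CPM in control cells, 7.56 and 7.76 after sanguinarine and 4.36 and 3.55 after evodiamine. The groups did not overlap, and its log2 change of -1.62 (95% interval -2.03 to -1.20, edgeR adjusted p = 1.52e-05) with evodiamine was the largest of any member against the control. With sanguinarine it was -0.67 ± 0.19, and that call was lost without any one of the control and sanguinarine libraries (adjusted p = 0.0745 to 0.108). E2F8, an atypical family member that represses E2F targets, changed by -1.10 ± 0.14 and -1.32 ± 0.14. E2F3 stood at 56.9 and 57.4 CPM in control cells, 53.9 and 47.6 after sanguinarine and 60.3 and 58.5 after evodiamine, and E2F7, the other atypical member, changed by -0.20 ± 0.14 and -0.30 ± 0.14.

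**Figure D3:**
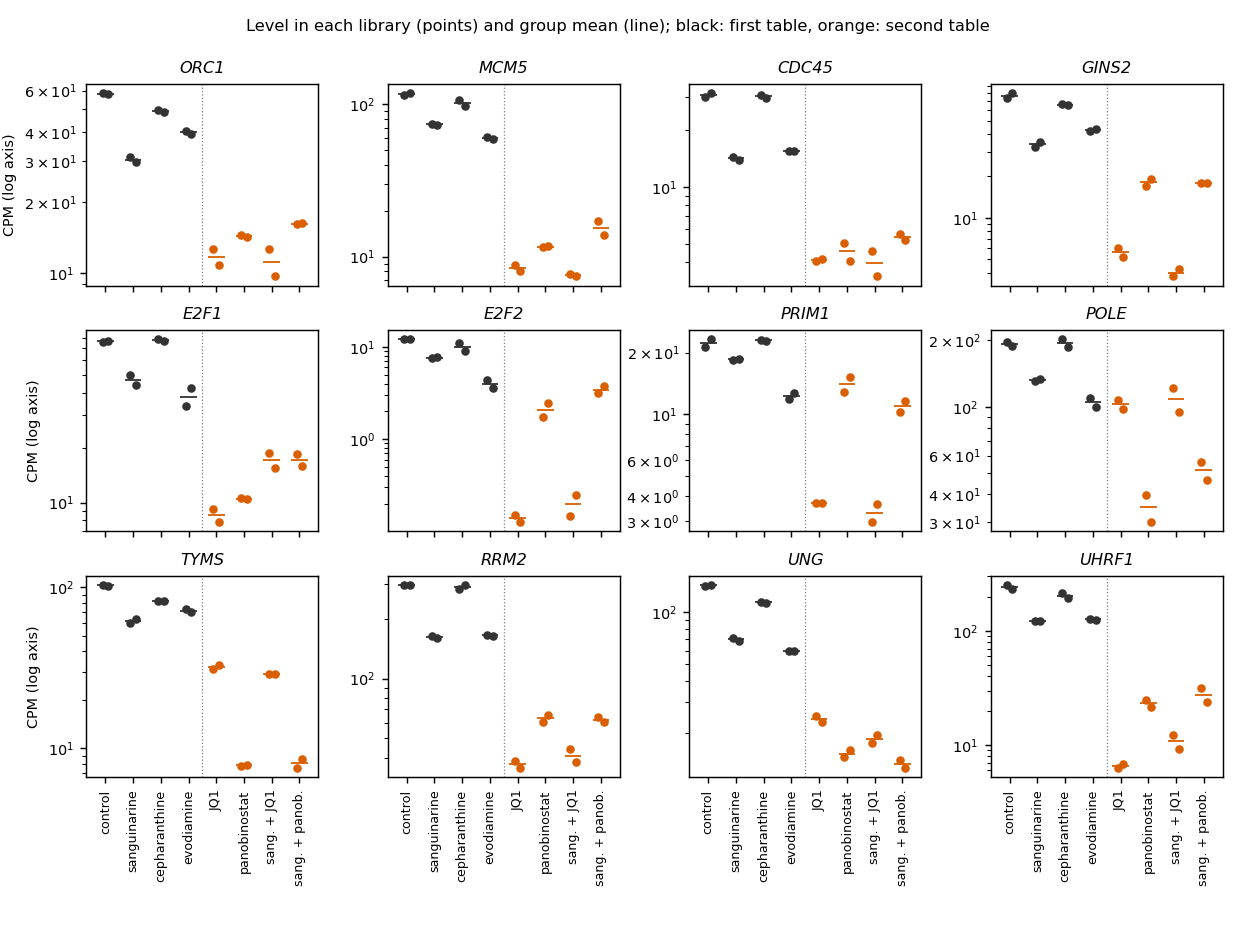
CPM on log axes for 12 members in each of the 16 libraries (points) with group means (lines), in black for the first table and orange for the second. The genes were chosen after their values were seen. Both sanguinarine and both evodiamine libraries lie below both control libraries in all 12 panels, and the cepharanthine points lie nearer to the control.

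In the class of the clamp, clamp loader and polymerases, sanguinarine lowered 11 of 12 and evodiamine 10. POLA1, the catalytic subunit of polymerase alpha, fell by 0.85 and 0.58, the first being the largest of the class with sanguinarine. POLE, the catalytic subunit of polymerase epsilon, stood at 197 and 189 CPM in control cells, 131 and 134 after sanguinarine and 110 and 99.2 after evodiamine. Its log2 change with evodiamine was -0.88 (95% interval -1.16 to -0.61, edgeR adjusted p = 0.000134), the largest of the class there, and its sanguinarine change of -0.54 was not called without sanguinarine replicate 1 (adjusted p = 0.0526). PRIM1, the primase subunit that makes RNA primers, stood at 21.4 and 23.3 CPM, 18.4 and 18.7 with sanguinarine and 11.9 and 12.7 with evodiamine. It passed with evodiamine, at -0.86 ± 0.13 (edgeR adjusted p = 0.000198), and not with sanguinarine, at -0.27 ± 0.13.

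PCNA, the sliding clamp, showed the other pattern, with 105 and 109 CPM in control cells, 67.9 and 64.6 after sanguinarine and 85.4 and 85.1 after evodiamine. The clamp gene passed with sanguinarine, at -0.69 ± 0.11, and not with evodiamine, at -0.33 ± 0.11 (edgeR adjusted p = 0.0519). RFC3, a clamp loader subunit, stood at 75.4 and 75.2 CPM, 52.6 and 51.3 and 57.4 and 56.7 in the same order. It passed with sanguinarine at -0.53 ± 0.14, though not without control replicate 2 or either sanguinarine library (adjusted p = 0.0523 to 0.0767), and did not pass with evodiamine at -0.40 ± 0.14. The smallest passing changes of the class were those of POLD1, a polymerase delta subunit, with sanguinarine (-0.39, lost without any one of the control and sanguinarine libraries, adjusted p = 0.145 to 0.216) and of RFC5 with evodiamine (-0.51 ± 0.10).

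All 5 genes of nucleotide supply fell with both alkaloids. RRM2, the regulated subunit of ribonucleotide reductase, stood at 295 and 297 CPM in control cells, 163 and 160 after sanguinarine and 166 and 164 after evodiamine. RRM2 changed by -0.87 (95% interval -1.07 to -0.68, edgeR adjusted p = 1.35e-06) and -0.84 (95% interval -1.04 to -0.65, edgeR adjusted p = 3.68e-06). TYMS, thymidylate synthase, fell by 0.74 and 0.52. The smallest changes were those of TK1 with sanguinarine (-0.46) and RRM1, the large reductase subunit, with evodiamine (-0.33), and both calls were lost without any one library of the groups compared (adjusted p = 0.0633 to 0.101 for TK1 and 0.144 to 0.223 for RRM1). With evodiamine the TK1 call was also lost without any one of those libraries (adjusted p = 0.0999 to 0.297), and the DUT call without evodiamine replicate 1 (adjusted p = 0.0629).

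UNG, the glycosylase that removes uracil from DNA, stood at 143 and 145 CPM in control cells, 71.3 and 68.4 after sanguinarine and 59.5 and 59.3 after evodiamine. It changed by -1.05 (95% interval -1.24 to -0.85, edgeR adjusted p = 1.91e-07) and -1.28 (95% interval -1.48 to -1.08, edgeR adjusted p = 2.41e-08), and its libraries did not overlap between groups. FEN1 fell by 0.68 and 0.64, and CLSPN, a mediator of the replication checkpoint, by 0.80 and 0.85. LIG1, which seals nicks between Okazaki fragments, stood at 112 and 107 CPM, 60.8 and 58.8 with sanguinarine and 83.9 and 88.3 with evodiamine. LIG1 passed with sanguinarine, at -0.87 ± 0.12, and not with evodiamine, at -0.34 ± 0.12 (edgeR adjusted p = 0.0633).

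UHRF1, which guides maintenance of DNA methylation behind the fork, stood at 254 and 234 CPM in control cells, 122 and 121 after sanguinarine and 127 and 125 after evodiamine. Its log2 change was -1.01 (95% interval -1.27 to -0.75, edgeR adjusted p = 9.44e-06) with the first and -0.95 (95% interval -1.22 to -0.69, edgeR adjusted p = 3.44e-05) with the second. The 2 chromatin assembly factor subunits CHAF1A and CHAF1B fell with both, by 0.60 to 0.72 with sanguinarine and by 0.62 to 0.65 with evodiamine. SLBP, which binds the stem-loop of histone mRNAs, stood at 107 and 108 CPM, 78.6 and 77.3 and 88.6 and 94.1, and passed with sanguinarine (-0.47 ± 0.10) but not with evodiamine (-0.24 ± 0.10).

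Cepharanthine at 3 µM gave a smaller and uncalled shift. By edgeR 0 members passed in either direction (background 0.961% lower and 2.6% higher), with a median log2 change of -0.13 against 0 over all genes. Of the 48 changes, 42 were below 0. At an unadjusted p under 0.05, 7 members were lower and 0 higher, against 6.08% and 8.72% of all genes, and DESeq2 called 3 lower after adjustment. At an unadjusted p under 0.05 DESeq2 had 12 members lower and 0 higher, against 4.65% and 4.22% of the 37622 genes it tested. TYMS stood at 82.1 and 82.7 CPM against 104 and 102 in the control, and UNG at 115 and 114 against 143 and 145, a pair chosen after values were seen, so that both were below the control in both libraries. Their log2 differences of -0.32 ± 0.09 and -0.33 ± 0.09 did not pass (edgeR adjusted p = 0.0625 and 0.0592). The count depended on the fit: libraries of the first table alone gave 15 lower and 2 higher. The background of called genes above (0.961% and 2.6%) is that of the edgeR fit of all 16 libraries. It does not apply to this fit or to the 3 calls of DESeq2, for which no share of all genes called is given. Those member counts are therefore only listed.

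Set against each other directly, sanguinarine was lower than cepharanthine for 39 members and higher for 0 (background 7.16% and 7.52%), and evodiamine was lower than cepharanthine for 30 and higher for 0 (8.28% and 5.79%). CDC45 differed most between sanguinarine and cepharanthine, by -1.09 (95% interval -1.38 to -0.80, edgeR adjusted p = 1.96e-05), and E2F2 between cepharanthine and evodiamine, by 1.34 (95% interval 0.93 to 1.75, edgeR adjusted p = 8.38e-05). Doses differed, with 1 µM sanguinarine against 3 µM of the others. Of these 39 and 30 calls, 26 and 21 held whichever library was left out.

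Between sanguinarine and evodiamine, 3 members were higher and 6 lower with sanguinarine (background 11.3% and 9.19%). Both directions together, the share of members called was near that of all genes. This background is that of the edgeR fit of all 16 libraries and of no other fit. Counts from other fits below are only listed. E2F2 was higher with sanguinarine, by 0.95 (95% interval 0.54 to 1.36, edgeR adjusted p = 0.00179), as were PRIM1 (0.59 ± 0.13) and MCM5 (0.30 ± 0.10). Lower with sanguinarine were DBF4 (-0.62), LIG1 (-0.53), ORC1 (-0.39), PCNA (-0.36), GINS2 (-0.33) and RRM1 (-0.31). E2F2 and LIG1 were the calls that held when any one library was left out. Without either evodiamine or either sanguinarine library the lower count was 1 or 2, and the higher count was 1 without evodiamine replicate 1, while a fit of the first table alone called 9 higher and 17 lower. For the other 39 members the difference did not pass, which does not show that the alkaloids act alike; for RRM2 its 95% interval was -0.22 to 0.16 and for GINS1 -0.12 to 0.71.

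Other genes of the pathway moved less uniformly. Of 35 further replication genes, 25 fell and 2 rose with sanguinarine (background 10.3% of all genes lower and 11.7% higher). With evodiamine 13 fell and 2 rose (6.13% and 5.3%). The median log2 changes were -0.43 and -0.31. POLD4, a small polymerase delta subunit, rose by 1.17 ± 0.11 with sanguinarine, where the helicase-related MCM8 (-1.0 ± 0.16), DSCC1 (-0.99 ± 0.18) and DTL (-0.95 ± 0.12) fell. RRM2B, the reductase subunit induced by p53, rose by 1.17 ± 0.12 with evodiamine, where RMI2 (-1.08 ± 0.13), BLM (-0.93 ± 0.15) and TOPBP1 (-0.92 ± 0.13) fell.

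Of 24 tested regulators of G1/S, 13 fell and 2 rose with sanguinarine (background 10.3% lower and 11.7% higher). With evodiamine 10 fell and 2 rose (6.13% and 5.3%), and with cepharanthine 2 rose (2.6% higher). The share that rose with sanguinarine was below that of all genes, and each rising count rests on 2 genes. The 2 risers were the cyclin-dependent kinase inhibitors CDKN1A and CDKN1C each time. CDKN1A had control levels of 264 and 271 CPM, which became 618 and 607 under sanguinarine, 363 and 326 under cepharanthine and 565 and 592 under evodiamine. CDKN1A was above the control in both libraries of each alkaloid, with log2 changes of 1.19 ± 0.10, 0.36 ± 0.10 and 1.11 ± 0.10. CDKN1C stood at 0.0748 and 0.0995 CPM in the control, at the level of a few counts, and at 2.75 and 1.87 with sanguinarine. FBXO5, an inhibitor of the anaphase-promoting complex, fell by 0.93 and 2.05, SKP2 by 0.89 with sanguinarine, and RBL1 and CCNE2 by 1.35 and 1.28 with evodiamine. CDKN2A was not tested, with 0 reads in all 6 control, sanguinarine and cepharanthine libraries.

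In the second table the members took 0.148% to 0.179% of counted reads. JQ1 and panobinostat differed in both directions, with 14 members higher and 20 lower with JQ1 (background 26.8% and 29.1%) and log2 differences from -3.89 to 2.03. The share of members called higher is near the background. Of the 14 and 20 calls, 13 and 17 held whichever library was left out.

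**Figure D4:**
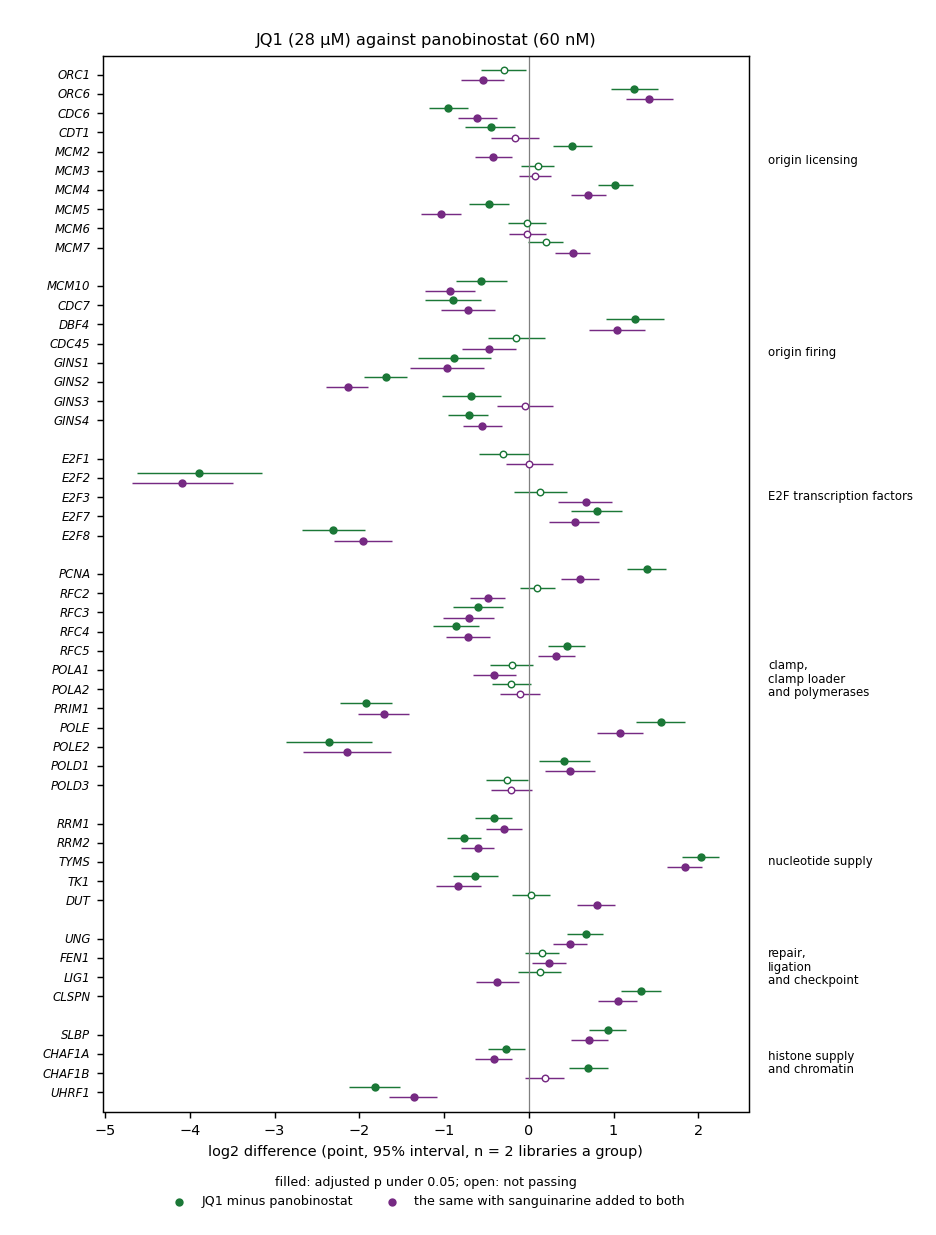
Log2 difference between JQ1 and panobinostat for each member, without sanguinarine (green) and with it in both groups (purple), with 95% intervals and filled points past an adjusted p of 0.05. E2F2, E2F8, POLE2, PRIM1 and GINS2 lie far to the left, and TYMS, POLE, PCNA, CLSPN and ORC6 to the right, in both sets.

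Within single role classes the members split. Among licensing genes ORC6 was higher with JQ1, at 26.7 and 29.2 CPM against 11.6 and 12, a difference of 1.24 (95% interval 0.97 to 1.52, edgeR adjusted p = 1.25e-07). CDC6 was lower with JQ1, at 30.2 and 30 against 56.4 and 59.6, by -0.95 (95% interval -1.18 to -0.72, edgeR adjusted p = 3.34e-07). Of 8 firing genes 6 were lower with JQ1, GINS2 most, at 6.03 and 5.23 CPM against 17.1 and 19.2 (log2 -1.69, 95% interval -1.94 to -1.44, edgeR adjusted p = 3.95e-10). DBF4 was the exception on the other side, at 28.4 and 29.9 against 10.8 and 13.6 (log2 1.25, 95% interval 0.91 to 1.59, edgeR adjusted p = 1.56e-06).

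E2F2 was close to the floor with JQ1, at 0.152 and 0.126 CPM against 1.73 and 2.45 with panobinostat. The difference was -3.89 (95% interval -4.63 to -3.15, edgeR adjusted p = 1.29e-08). E2F8 was lower with JQ1 too, at -2.31, whereas E2F7 was higher by 0.80. The 2 polymerase epsilon subunits went apart, with POLE higher with JQ1, at 107 and 98.1 CPM against 39.9 and 29.9 (log2 1.56, 95% interval 1.27 to 1.84, edgeR adjusted p = 8.22e-09), and POLE2 lower, at 0.836 and 0.88 against 3.88 and 4.95 (log2 -2.36, 95% interval -2.87 to -1.85, edgeR adjusted p = 8.49e-08).

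TYMS stood at 31.1 and 32.8 CPM with JQ1 and 7.76 and 7.9 with panobinostat, a difference of 2.03 (95% interval 1.81 to 2.25, edgeR adjusted p = 4.11e-12), the largest on that side. TYMS overlaps ENOSF1 and TYMSOS on the other strand, whose reads may be shared. The other passing genes of nucleotide supply were lower with JQ1, with differences of -0.77 for RRM2, -0.63 for TK1 and -0.41 for RRM1, the last of which was lost without JQ1 replicate 2 (adjusted p = 0.0617). CLSPN and UNG were higher with JQ1 by 1.32 and 0.67. UHRF1 was lower, at 6.34 and 6.79 CPM against 24.6 and 21.7 (log2 -1.82, 95% interval -2.12 to -1.52, edgeR adjusted p = 1.98e-09), and SLBP higher by 0.93.

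With sanguinarine in both groups, 16 members were higher and 24 lower with JQ1 than with panobinostat (background 25.4% and 27.5%). E2F2 (-4.09 ± 0.29) and TYMS (1.84 ± 0.10) lay at the ends again. DUT, the dUTPase, was higher by 0.80 ± 0.11, with 41.6 and 52.2 CPM against 27.6 and 26.4.

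The next question was what sanguinarine did beside a second drug. Added to JQ1 it raised 4 members and lowered 12 (background 16.2% and 13.8%), with a median log2 change of -0.09. E2F1, an activator of S phase genes, stood at 18.8 and 15.5 CPM with both drugs and 9.27 and 7.82 with JQ1, a rise of 1.0 (95% interval 0.71 to 1.29, edgeR adjusted p = 1.68e-05). UHRF1 rose from 6.34 and 6.79 to 12.3 and 9.24 CPM (log2 0.71, 95% interval 0.41 to 1.01, edgeR adjusted p = 0.000919). These groups did not overlap for either gene, and both calls held whichever library was left out. The rises of CDT1 (0.43 ± 0.14) and MCM7 (0.29 ± 0.10) were lost without JQ1 replicate 2 (adjusted p = 0.263 and 0.172) or sanguinarine with JQ1 replicate 1 (0.17 and 0.301), and MCM7 also without JQ1 replicate 1 (0.105).

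The 12 that fell beside JQ1 were MCM2, CDC7, GINS1, GINS2, PCNA, RFC2, RFC3, POLA1, RRM1, UNG, CLSPN and CHAF1B. RFC3 went from 27.7 and 29.2 CPM to 17.5 and 15.8, a fall of -0.77 (95% interval -1.08 to -0.47, edgeR adjusted p = 0.000432), and RFC2 from 34.1 and 33.5 to 21.6 and 20.6 (log2 -0.68, 95% interval -0.88 to -0.47, edgeR adjusted p = 2.95e-05). POLE did not pass beside JQ1, at 0.08 ± 0.13. Of the 12 calls, 6 held whichever library was left out, and the count was 7 without JQ1 replicate 1. The rising count was 2 without JQ1 replicate 2 or without sanguinarine with JQ1 replicate 1, 7 without sanguinarine with JQ1 replicate 2, and 9 without both libraries of sanguinarine with panobinostat.

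Added to panobinostat, sanguinarine raised 6 members and lowered 7 (background 11.5% and 11.4%), with a median log2 change of -0.03. Both shares of members were near the background. The 6 were E2F1, E2F2, E2F7, POLE, MCM2 and MCM5, and the 7 were DUT, POLE2, CDC7, RFC3, GINS1, RRM1 and CLSPN. DUT went from 46.9 and 54.9 CPM to 27.6 and 26.4, a change of -0.92 (95% interval -1.14 to -0.69, edgeR adjusted p = 1.12e-05), and E2F1 from 10.6 and 10.4 to 18.4 and 15.8 (log2 0.70, 95% interval 0.42 to 0.99, edgeR adjusted p = 0.00102). Neither gene's groups overlapped. Duplicates here differed by a median of 0.24 on the log2 scale over the members, against 0.04 in the control, and counts moved with single libraries. The rising count was 2 without panobinostat replicate 2, 3 without panobinostat replicate 1 and 10 without sanguinarine with panobinostat replicate 2, and the falling count was 4 and 12 without the first and last of these. With only the groups compared in the fit, 0 rose and 4 fell.

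CDC7, GINS1, RFC3, RRM1 and CLSPN were called lower with sanguinarine in all 3 settings, alone, beside JQ1 and beside panobinostat. The share of all genes called lower in all 3 was not counted, so these members are only listed. RRM1 went from 353 and 363 CPM to 230 and 227 alone, from 118 and 105 to 83.9 and 79.9 beside JQ1 and from 144 and 154 to 88.9 and 111 beside panobinostat. Its log2 changes were -0.64 ± 0.10, -0.45 ± 0.10 and -0.57 ± 0.10, of which the second was lost without JQ1 replicate 1 (adjusted p = 0.0621). CDC7 and GINS1 beside JQ1, GINS1 and CLSPN beside panobinostat, and GINS1 and RFC3 alone also lost their call when some library was left out, with adjusted p up to 0.272. E2F1 went the other way, falling by 0.70 alone and rising by 1.0 and 0.70 beside the other drugs.

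**Figure D5:**
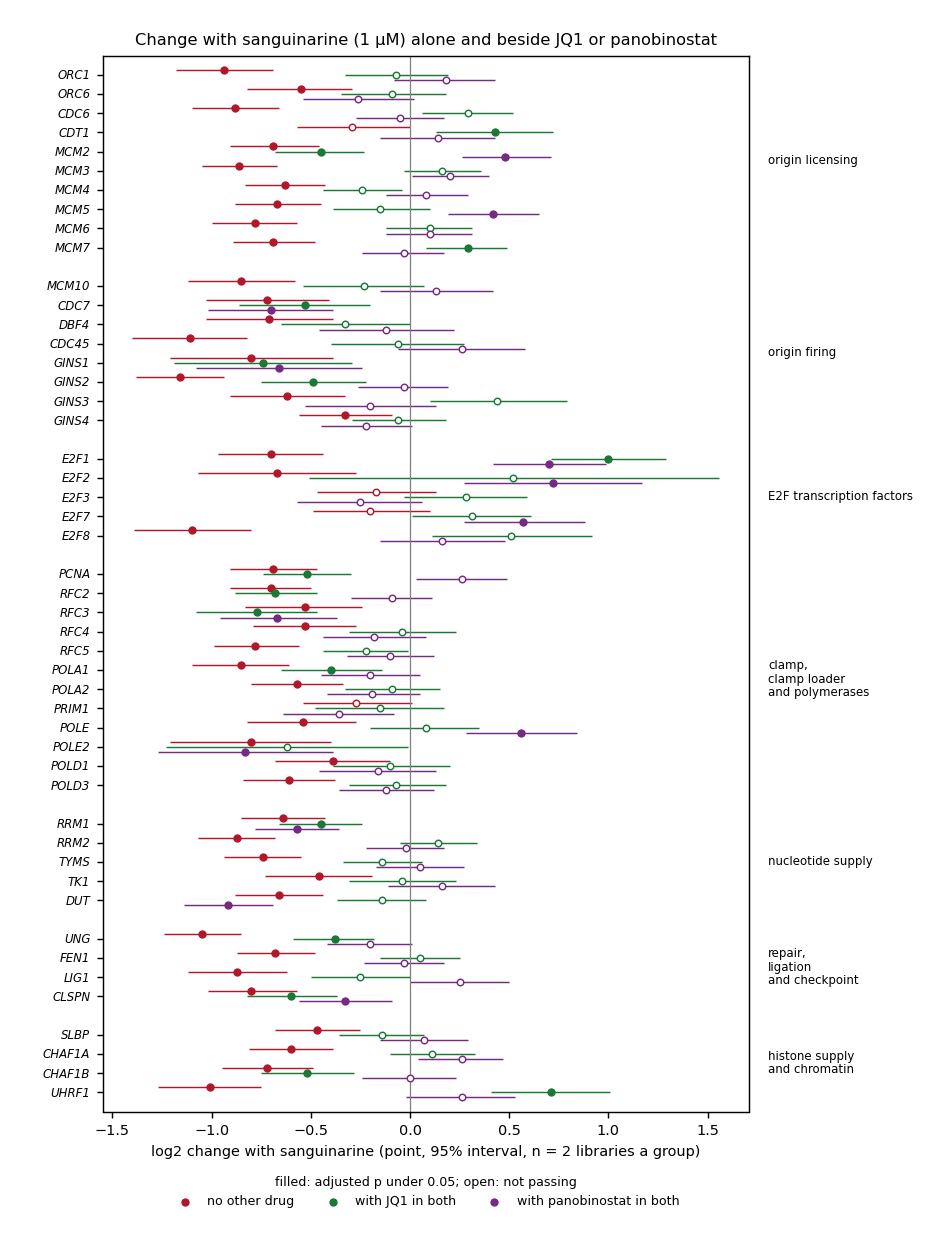
Log2 change with sanguinarine for each member, alone (red), beside JQ1 (green) and beside panobinostat (purple), with 95% intervals and filled points past an adjusted p of 0.05. Red points all lie left of 0, while green and purple points scatter on both sides of it.

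Whether the change with sanguinarine differed beside a second drug was tested as an interaction, the change beside the drug minus the change alone, a contrast that removes any constant log2 offset of one table from the other. Against JQ1 it was above 0 for 26 members and below for 0 (background 9.83% and 8.25%), and against panobinostat for 32 and 0 (7.91% and 8.65%). UHRF1 had the largest with JQ1, 1.72 (95% interval 1.32 to 2.12, edgeR adjusted p = 4.76e-06), and E2F1 the largest with panobinostat, 1.40 (95% interval 1.01 to 1.79, edgeR adjusted p = 4.75e-05). The 26 became 16 without control replicate 1 and 17 without JQ1 replicate 2. The level before sanguinarine was added differed between the tables. Every member had a lower mean level with JQ1 than in the control, such as CDC45, at 4.05 and 4.18 CPM against 30 and 31.4. With panobinostat every member but GINS4 and TK1 had a lower mean level than in the control. GINS4 stood at 24.4 and 24.3 CPM with panobinostat against 18.7 and 19, and TK1 at 182 and 179 against 169 and 171. The share of all genes with a lower mean level across the tables was not counted, and drug and table cannot be told apart here. The part of such level differences in the interaction was not tested.

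By class, the interaction passed for 8 of 10 licensing genes with each drug. ORC6 passed with neither, at 0.47 ± 0.18 and 0.29 ± 0.18, and the other exception was MCM2 with JQ1 (0.23 ± 0.15) and CDT1 with panobinostat (0.43 ± 0.19). All 4 genes of repair, ligation and checkpoint and all 4 of histone supply and chromatin passed with panobinostat, against 3 and 2 with JQ1. In the clamp and polymerase class 4 of 12 passed with JQ1 and 6 with panobinostat, and RFC3, at -0.24 ± 0.20 and -0.13 ± 0.20, did not pass with either.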

How the data were processed

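Alignment was by STAR 2.5.1 on GRCh38, per the submitters' processing notes, and the design text names GENCODE vM21, a release name of the mouse series. Which program counted the reads is not stated there. The 2 deposited tables hold whole-number counts of reads per gene, and RPKM values deposited beside them, per the file headers. Gene positions in the tables are not those of GRCh38 and are not printed. Of the value columns, 0 were left unused. Counts of all 16 libraries were fitted in edgeR 4.0.16 (R 4.3.3) with TMM scaling, filterByExpr and the quasi-likelihood test, with Benjamini-Hochberg adjustment over the 22263 genes tested, with 0.05 as threshold. Standard errors are the absolute log2 change over the square root of F. CPM uses TMM-scaled library sizes. There were 12 comparisons, each within a table except the interactions. Alternatives were DESeq2 size factors, DESeq2's Wald test, no filter, a replicate block, fits of fewer libraries and each library left out, with 1 further alternative added after seeing the data, namely leaving out both libraries of sanguinarine with panobinostat. The scripts were tested on simulated counts. Named genes are, by class and comparison, those with the largest and smallest passing change, and those whose call differs between sanguinarine and evodiamine. Members, lists and rules were chosen with earlier results of these data known. Promoter sequences are RefSeq's, on GRCh38.p14. Biological duplicates are stated by the labels, without saying whether cultures were separate, so p-values measure only the spread between these libraries.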

Additional observations from a re-analysis of the deposited data

Results flagged for a closer look

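The change with sanguinarine differed from that without a second drug, by the interaction test in edgeR, for 26 members with JQ1 and 32 with panobinostat, all above 0. With JQ1 the largest and smallest passing values by class, on the log2 scale, were 1.17 for CDC6 and 0.39 for MCM4 in licensing, 1.06 for GINS3 and 0.61 for MCM10 in firing, and 1.70 for E2F1 and 1.61 for E2F8 among E2F genes. They were 0.62 for POLE and 0.48 for POLA2 among polymerases and clamp genes, 1.02 for RRM2 and 0.52 for DUT in nucleotide supply, 0.73 for FEN1 and 0.62 for LIG1 in repair and ligation, and 1.72 for UHRF1 and 0.71 for CHAF1A in chromatin.

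With panobinostat they were 1.17 for MCM2 and 0.65 for MCM7, 1.37 for CDC45 and 0.98 for MCM10, 1.40 for E2F1 and 0.77 for E2F7, and 1.10 for POLE and 0.49 for POLD3, in the same order of classes. The remaining classes gave 0.85 for RRM2 and 0.62 for TK1, 1.12 for LIG1 and 0.47 for CLSPN, and 1.27 for UHRF1 and 0.54 for SLBP. When each library was left out in turn, 15 of the 26 and 26 of the 32 calls held every time. Of the genes named here, MCM4, MCM10, POLE, POLA2, DUT and LIG1 with JQ1, and E2F7, POLD3, TK1, CLSPN and SLBP with panobinostat, lost their call in at least 1 such fit. No value was tested for its cause.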

How the results depend on the processing

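Of 319 called member values, 0 changed direction under any alternative, 220 kept their call under all of them and 99 lost it under at least one. DESeq2's Wald test kept 318, the replicate block 319 of 319, and leaving out both libraries of sanguinarine with panobinostat 234 of 234. No scaling moved the median of all genes by more than 0.05. Of 257 values that did not pass, 65 changed sign somewhere, none over 0.25 in size. Among those named, RFC3 in the panobinostat interaction ranged from -0.48 to 0.15, and POLE beside JQ1 reached -0.12, with one library left out. Replicate numbers of the second table did not pair the libraries, with correlations of replicate differences from -0.05 to 0.2. The first table's titles give no shared number, and the replicate block was set for the second table only. It adjusted no library of the first table, so calls kept within that table do not test blocking. With the replicate block, cepharanthine lowered 2 members and sanguinarine exceeded evodiamine in 6.

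Counts lower with cepharanthine were 2 with DESeq2 size factors, 3 with DESeq2, 15 within the first table, 7 with only the groups compared and 3 without both libraries of sanguinarine with panobinostat, and 2 were higher within the first table and with only the groups compared. For sanguinarine against evodiamine, 9 were higher within the table and with only these groups, 7 without both of those libraries, and 12 were lower with DESeq2, 17 within the table, 20 with only these groups and 15 without both. Beside JQ1, 7 rose without the filter, 2 within the table and 9 without both. Beside panobinostat, 3 rose within the table and 0 with only the groups compared, and 4 fell in each. Shares of all genes called in these fits are not given, and the backgrounds above belong to the main fit of all 16 libraries. Member counts of other fits, also with a library left out, show only that the number called depended on the fit.

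With each library left out in turn, sanguinarine against evodiamine gave 1 to 2 members higher and 1 to 2 lower, sanguinarine added to JQ1 2 to 7 higher and 7 to 10 lower, and sanguinarine added to panobinostat 2 to 10 higher and 4 to 12 lower. The interaction was above 0 for 16 to 26 members with JQ1 and below 0 for 0 to 2 with panobinostat. The cause of these shifts was not tested. Depth limits E2F2 with JQ1, near the floor of 3 counts.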
